A study of Caenorhabditis elegans with 2 samples.

Results

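The mir-51 family of Caenorhabditis elegans consists of the microRNA genes mir-51, mir-52, mir-53, mir-54, mir-55 and mir-56. These 6 genes, each taken with 2000 bp on either side, were described among the 261 microRNA genes annotated on the nuclear chromosomes. The family was picked because its loci, above all mir-51 and mir-52, were already known to carry high peak signal in these data, so the values below are a description and no test is attached to them.

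The peaks come from chromatin immunoprecipitation with sequencing of FLT-1, also called BAZ-2, a worm relative of the vertebrate BAZ2 chromatin proteins. Both samples were whole early embryos aged 1 hour, obtained by egg bleaching from strain OP797, and they form 1 group of 2 biological replicates. OP797 carries the integrated transgene wgIs797, a fosmid copy of flt-1 fused to TY1, EGFP and 3xFLAG with unc-119(+), in an unc-119 (tm4063) background, and both samples share all of these alleles. The antibody was directed against GFP, so the tagged copy alone was followed, and the labels do not say whether the untagged flt-1 gene was still present. There was no second condition and no control library was used here. Signal from whole embryos is an average over all their cells, and the assay gives no RNA level for any of the genes.

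Every peak carries a signal value set by the authors, whose scale no source used here states, and it was read only within a list. The list made from both replicates together (the pooled list) held 1083 peaks after the authors' threshold, with a median signal of 75.4, and a separate list that the authors call conservative held 977. The conservative list is not a part of the pooled list, since some microRNA genes, let-7 among them, have a peak in the former and none in the latter. Replicate 1 had 618 thresholded peaks and replicate 2 had 747 on nuclear chromosomes. The longer ranked lists, from before the threshold, held between 40288 and 49032 regions and carry an irreproducible discovery rate (IDR). It is low where a region ranks consistently high in both inputs, and agreement at a low rank does not make it low. No read counts accompany the lists, so depth is unknown.

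MicroRNAs are cut from hairpin precursors by Drosha and Dicer and loaded into Argonaute proteins, which they guide to messenger RNAs mainly through the seed, bases 2 to 8 of the mature strand. The mir-51 family belongs to the widely conserved miR-100 group of animals. Worms that lack the whole family die as embryos, while loss of individual members has mild effects, and the family is among the abundant microRNAs of the worm embryo.

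The mature strands are shown because the shared seed is what defines the family. The sequences were read from the RefSeq genome of the WBcel235 assembly, the same sequence as ce11, at the annotated positions, 5′ to 3′, with the seed in capitals.
mir-51 (5p, chrIV:11026074-11026096, minus strand): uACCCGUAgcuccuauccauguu
mir-52 (5p, chrIV:14034024-14034047, plus strand): cACCCGUAcauauguuuccgugcu
mir-53 (5p, chrIV:11027653-11027676, minus strand): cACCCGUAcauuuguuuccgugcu
mir-54 (3p, chrX:13145011-13145034, minus strand): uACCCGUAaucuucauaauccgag
mir-55 (3p, chrX:13144842-13144864, minus strand): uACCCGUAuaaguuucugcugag
mir-56 (3p, chrX:13144706-13144727, minus strand): uACCCGUAauguuuccgcugag
Among 458 mature products of 260 RefSeq microRNA genes, the seed ACCCGUA occurred in these 6 genes and in no other. In mir-51, mir-52 and mir-53 it lies on the 5p arm of the hairpin, and in mir-54, mir-55 and mir-56 on the 3p arm. The mature strands of mir-52 and mir-53 differ at a single base, A12U, counted from 1 at the 5′ end with the base of mir-52 first. Their precursors were 79% identical over 100 aligned positions, against 43.6% to 57.1% for the other pairs of members.

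The genes lie at 4 separate places by the peak beside them. The gene mir-51 (WBGene00003279) is at chrIV:11026013-11026112 on the minus strand. A gap of 1480 bp separates it from mir-53 (WBGene00003281), at chrIV:11027593-11027691 on the same strand. The gene mir-52 (WBGene00003280) is at chrIV:14034008-14034107 on the plus strand. On X, mir-54 (WBGene00003282, chrX:13144996-13145094), mir-55 (WBGene00003283, chrX:13144827-13144924) and mir-56 (WBGene00003284, chrX:13144691-13144787) follow each other on the minus strand within 404 bp. These 3 lie inside the protein-coding gene F09A5.3 (WBGene00008600), which runs on the opposite strand.

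Each of the 4 places had its own peak, and each peak's summit lay just upstream of a precursor. The summits were between 97 and 13 bp upstream of the precursor's 5′ end (distances of -97 to -13 bp, median -81). Signal differed widely within the family: the pooled value was 535 at mir-51, 259 at mir-52, 67.3 at the mir-54 cluster and 56.04 at mir-53. The mir-51 peak was 2.07 times the mir-52 peak, 7.94 times the mir-54 peak and 9.55 times the mir-53 peak. The upper pair stands far above the median of the list and the lower pair below it.

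All 6 members had a pooled thresholded peak within 2000 bp, and the share among all 261 microRNA genes was 14.9%, or 39 genes. A peak touched the precursor itself at mir-51, mir-52, mir-53 and mir-54, where 3.45% of all microRNA genes (9 genes) were touched. The genes mir-55 and mir-56 were reached only through the mir-54 peak upstream of the cluster. A summit within 500 bp upstream was found for all 6 members and for 5.75% of all microRNA genes (15 genes). Since these members were chosen from this same signal, the shares say where the family stands and no more.

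**Figure D1:**
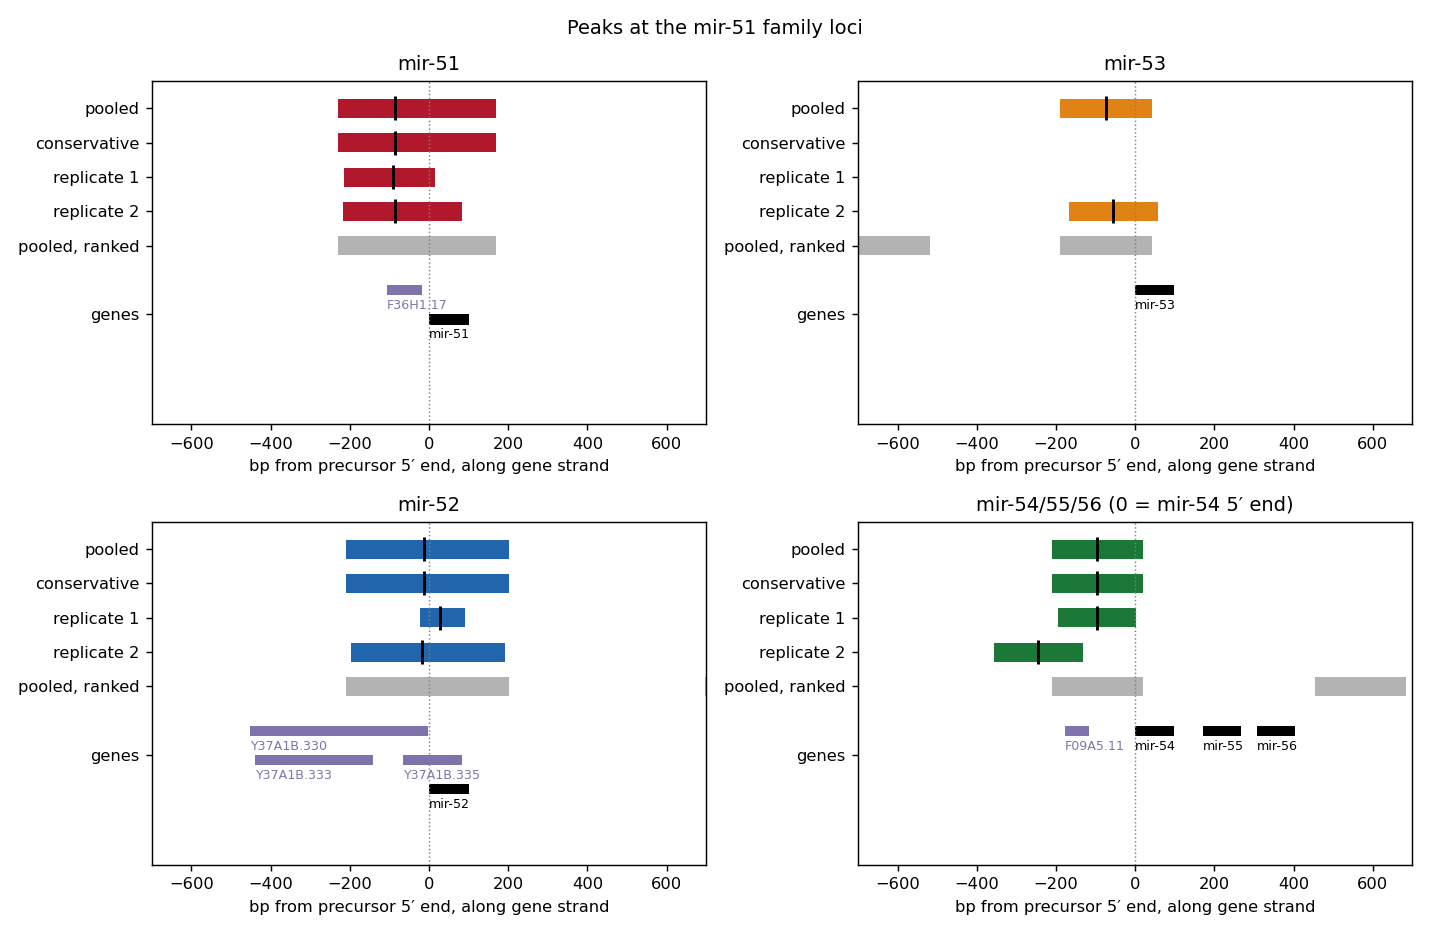
Peaks at the 4 places of the family, drawn in bp from the 5′ end of the precursor along its own strand (0 is the precursor start, negative is upstream). Coloured bars are thresholded peaks of the named lists with a black tick at the summit, grey bars are regions of the pooled ranked list, black boxes are microRNA precursors and violet boxes are other non-coding RNA genes under a peak. The summits sit to the left of the precursor start except for mir-52 in replicate 1, and mir-53 has no bar in the conservative list or in replicate 1.

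The mir-51 peak was the strongest of the family in both replicates. In replicate 1 its signal was 326, rank 3 of 618 thresholded peaks. In replicate 2 it was 186, rank 12 of 747. Both replicates thus placed it near the top of their own list, and the pooled list placed it at rank 4 of 1083, above 99.6% of peaks. It kept rank 4 of 977 in the conservative list, and its −log10 IDR was 5, the highest value the ranked lists hold.

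The position of the mir-51 summit hardly moved between replicates. It lay 90 bp upstream of the precursor in replicate 1 (-90) and 85 bp upstream in replicate 2 (-85), with -87 in the pooled list. The extent of the peak differed more. Replicate 1 had chrIV:11026099-11026328, of 230 bp, which reached 14 bp into the precursor. Replicate 2 had chrIV:11026029-11026330, of 302 bp, which covered 84 bp of it. The pooled peak, chrIV:11025944-11026342, of 399 bp, covered all 100 bp.

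The sequence before mir-51 is shown because the summit and a second RNA gene both fall in it. These are the 120 bases upstream of the precursor on the gene strand, 5′ to 3′, with the 11 bases around the pooled summit in capitals.
mir-51 upstream (chrIV:11026113-11026232, minus strand): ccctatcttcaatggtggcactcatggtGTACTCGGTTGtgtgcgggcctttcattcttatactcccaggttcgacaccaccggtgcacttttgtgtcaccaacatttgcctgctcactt
The non-coding RNA gene F36H1.17 (WBGene00219935, chrIV:11026131-11026219) lies wholly in this stretch, on the same strand as mir-51. The pooled summit falls inside it, 20 bp after its 5′ end. The annotation gives it no class beyond non-coding RNA. Its 89 bases hold the letters GTTCGACAC, shown here in capitals.
F36H1.17 (chrIV:11026131-11026219, minus strand): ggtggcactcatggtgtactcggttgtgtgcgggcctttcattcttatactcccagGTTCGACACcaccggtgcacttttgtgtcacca
These letters match GTTCGANNC, a form of the B box, the internal promoter element of tRNA genes that the RNA polymerase III factor TFIIIC recognises. The match occupies bases 57 to 65 of F36H1.17, starts 51 bp upstream of the mir-51 precursor and starts 36 bp downstream of the summit.

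No other family peak held that motif. On either strand within 300 bp around the summit, GTTCGANNC occurred at 21.9% of the 1083 pooled peaks, 237 in number. It was in 73.3% of the 251 peaks with a tRNA gene within 250 bp of the summit and in 6.37% of the 832 peaks without. The mir-51 peak is among the 53 of this latter kind. In the 300 bp upstream of microRNA genes the motif occurred at 3.07%, 8 of 261, and tRNA genes held it at 72.2%. A match is a description of letters and shows no site.

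The mir-52 peak was the second strongest of the family and had the family's most extreme ratio of signal between replicates. Its signal was 90.1 in replicate 1, rank 171 of 618, and 181 in replicate 2, rank 13 of 747. That places it above 72.3% of the peaks of replicate 1 and above 98.3% of those of replicate 2. The pooled value of 259 ranked 63 of 1083, above 94.2% of the list, and ranked 63 of 977 in the conservative list. The −log10 IDR was 4.90 in replicate 1 and 5 in replicate 2.

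Shape and position at mir-52 differed between replicates as well. In replicate 2 the peak was 389 bp wide, chrIV:14033812-14034200, with its summit 17 bp upstream of the precursor (-17). In replicate 1 it was 114 bp wide, chrIV:14033985-14034098, with its summit 28 bp inside the precursor, at +28. The pooled peak, chrIV:14033799-14034210, spanned 412 bp with the summit at -13. The precursor was under the peak in both, by 91 bp in replicate 1 and by all 100 bp in replicate 2. Upstream placement of the mir-52 summit therefore rests on replicate 2.

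The stretch before mir-52 is shown for its composition, drawn as above.
mir-52 upstream (chrIV:14033888-14034007, plus strand): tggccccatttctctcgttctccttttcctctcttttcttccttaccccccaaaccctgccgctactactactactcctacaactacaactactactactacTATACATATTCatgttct
It was 75% C or T, where the median over the same stretch of 261 microRNA genes was 54.2%, and the 2 genes that reached this value were mir-52 and mir-54. Under the peak lie 3 annotated non-coding RNA genes besides mir-52. Y37A1B.330 (WBGene00195705, chrIV:14033557-14034004), on the same strand, has 206 of its 448 bp under the peak and holds the summit near its 3′ end, at 438 bp from its start. Y37A1B.335 (WBGene00199919, chrIV:14033942-14034090), on the opposite strand, is covered in full over 149 bp and also holds the summit. Y37A1B.333 (WBGene00198933, chrIV:14033569-14033866), on the opposite strand too, has 68 bp under the peak and the summit lies outside it. Where genes overlap in this way, a peak cannot be given to one of them. The wider window of mir-52 holds 7 non-coding RNA genes and 8 piRNA genes, which give rise to the small RNAs that guard the germ line.

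At the cluster of mir-54, mir-55 and mir-56 the peak was modest in both replicates. Signal was 41.7 in replicate 1, rank 523 of 618, and 29.2 in replicate 2, rank 706 of 747. Both values lie in the lower part of their lists. The pooled value of 67.3 ranked 648 of 1083, above 40.2% of peaks, and 634 of 977 in the conservative list, where it was kept. The −log10 IDR was 2.45 in replicate 1 and 2.54 in replicate 2, past the value of 2 that stands for an IDR of 0.01.

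The summit lay upstream of mir-54 in both replicates but not at the same place. It was at -97 in replicate 1 and in the pooled list, and at -245 in replicate 2. The peak of replicate 1, chrX:13145093-13145288, reached 2 bp into the precursor, and that of replicate 2, chrX:13145227-13145450, ended before it and covered 0 bp. The pooled peak was chrX:13145076-13145305. No peak of a thresholded list touched mir-55 or mir-56.
mir-54 upstream (chrX:13145095-13145214, minus strand): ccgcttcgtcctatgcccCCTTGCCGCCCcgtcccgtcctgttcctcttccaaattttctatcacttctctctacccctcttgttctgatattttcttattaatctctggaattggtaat
This stretch was, at 75% C or T, level with that of mir-52. The non-coding RNA gene F09A5.11 (WBGene00196304, chrX:13145213-13145271), on the strand of mir-54, lies wholly under the peak over 59 bp without holding the summit. The host F09A5.3 has no exon under the peak. Over mir-55 the annotation also places F09A5.15, a microRNA gene on the opposite strand, which adds 1 to the count of other microRNA genes with a peak in their window.

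The mir-53 peak was the weakest and did not pass in every list. Replicate 1 had a region of signal 23.2 at chrIV:11027640-11027835, rank 3626 of its 49032 ranked regions, with a −log10 IDR of 0.155 and a score of 64 on the authors' scale of up to 1000. Replicate 2 had a thresholded peak of signal 34.1 at chrIV:11027635-11027858, rank 624 of 747, with a −log10 IDR of 2.85. The region was thus present in both replicates and past the threshold only in replicate 2. In the pooled list it passed, at chrIV:11027651-11027880 with a signal of 56.04, rank 863 of 1083 and above 20.3% of peaks. It was not in the conservative list, and in the comparison of replicate against replicate its −log10 IDR was 1.88, under 2.

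Where the region was found, its summit lay on the same side of mir-53. The distance was -47 in replicate 1, -56 in replicate 2 and -75 in the pooled list. Between the pooled summits of mir-51 and mir-53 there were 1567 bp, so mir-53 counts among the genes with a peak within 2000 bp in replicate 1 and in the conservative list only through the peak at mir-51. No other gene lies under the mir-53 peak.
mir-53 upstream (chrIV:11027692-11027811, minus strand): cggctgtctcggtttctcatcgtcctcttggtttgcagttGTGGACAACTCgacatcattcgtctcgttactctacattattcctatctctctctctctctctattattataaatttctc
It was 70.8% C or T, a value reached by 5 of the 261 microRNA genes, while the stretch before mir-51 was 63.3%, a value reached by 39. All 4 stretches lie above the median of 54.2%, and the weakest peaks do not have the lowest values. The pooled peaks of mir-52 and mir-53 both cover the nearly identical mature strands. The longest run of identical bases between these 2 peaks was 17 bp, and between the 2 precursors it was also 17 bp. It was 8 or 9 bp between the other pairs of family peaks. The pooled signals of mir-52 and mir-53, 259 and 56.04, stood at rank 63 and rank 863 of 1083.

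**Figure D2:**
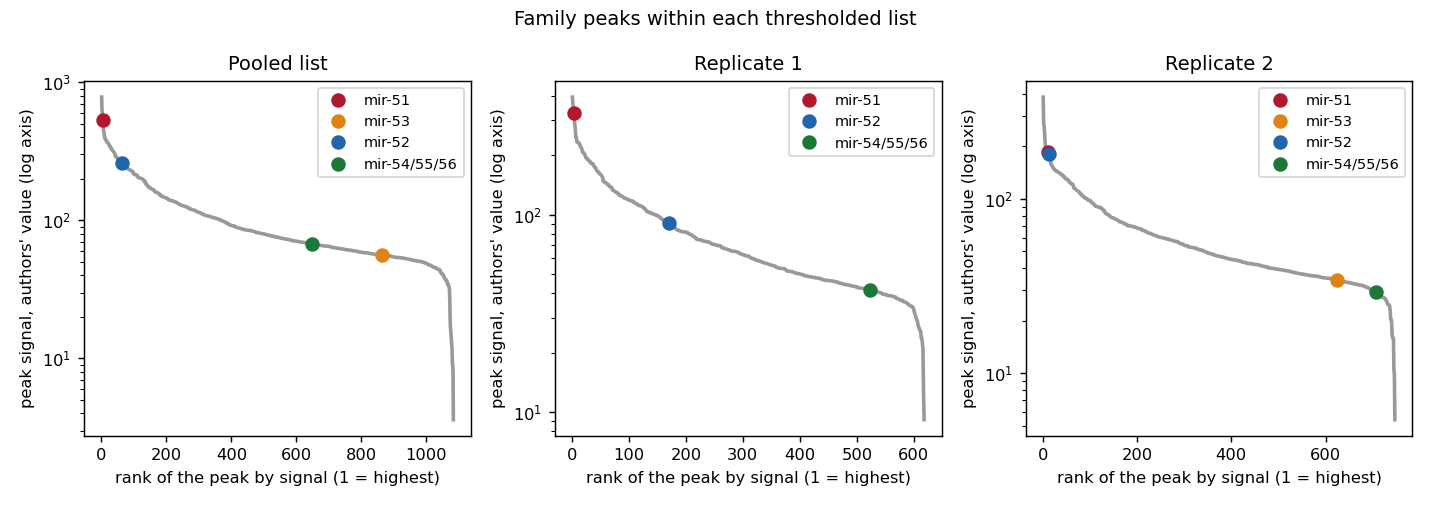
Signal of each thresholded peak (authors' value, log axis) against its rank within its own list, for the pooled list and both replicates. The grey line is the whole list and the coloured dots are the family peaks. The dot of mir-51 is near the top in all panels, mir-52 lies lower in replicate 1 (rank 171) than in replicate 2 (rank 13), and mir-53 is missing from replicate 1.

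The replicates can be set side by side only with the limit that each list has its own scale. Over the 1043 pooled peaks with a match in both ranked lists, the signal of replicate 1 divided by that of replicate 2 had a median of 1.18, with 0.546 and 2.36 as the 5th and 95th percentiles. The ratio was 1.75 at mir-51, 1.43 at mir-54, 0.681 at mir-53 and 0.499 at mir-52. The value of mir-52 was higher than that of only 3.26% of peaks, and the other 3 lay within the percentiles given. The peak at mir-51 was 3.61 times mir-52 in replicate 1 and 1.03 times in replicate 2.

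**Figure D3:**
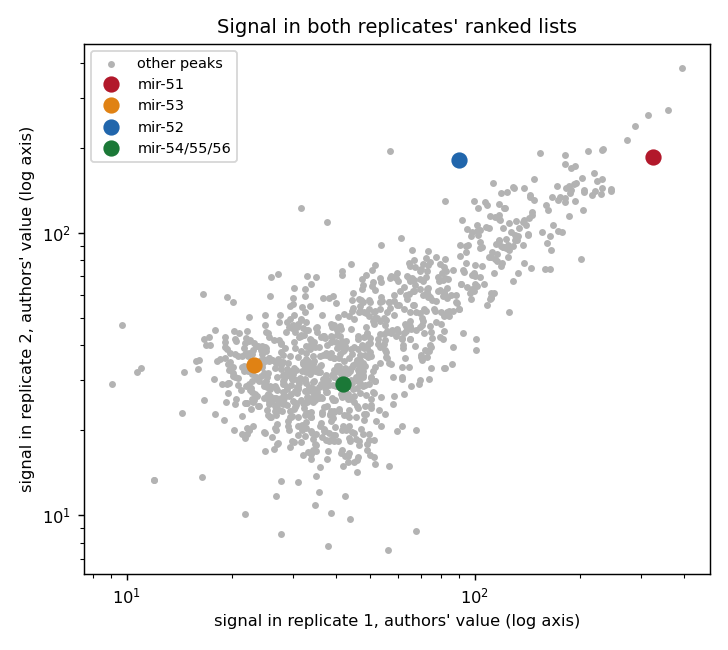
Signal in replicate 1 (x axis) against replicate 2 (y axis), authors' values on log axes, for the 1043 pooled peaks with a match in both ranked lists (grey) and the family peaks (coloured). The dot of mir-52 lies above the main cloud, with 90.1 and 181, and the dot of mir-51 lies at the upper right, with 326 and 186.

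The peaks at mir-52 and mir-51 were the widest of the pooled list. Most peaks there, 76.4%, had the common width of 230 bp, as did those of mir-53 and mir-54, and 20 were wider, from 231 to 412 bp. The mir-52 peak, at 412 bp, came first, the mir-51 peak, at 399 bp, second, and the next, at 341 bp, lay by the tRNA gene F15G9.t1 on X. The lowest signal among these 20 wide peaks was 160 and the median 377, where the list median was 75.4. All 20 wide peaks thus lay above the list median in signal. The order by width was not the order by signal. The widest peak, at mir-52, ranked 63 by signal, while a narrower peak of 212 bp had a signal of 393 at rank 11. Of all 1083 pooled peaks, 754 had no tRNA, snRNA or snoRNA gene within 250 bp of the summit. Such genes encode the RNAs of translation, splicing and RNA modification. Among the 20 wide peaks, 16 had one. The 4 without were those of mir-52 and mir-51, a peak in the shared promoter of the histone genes his-67 and his-68, and a peak at the non-coding RNA gene C14F11.14. Width was not alike in the replicates: mir-52 had the widest peak of replicate 2, at 389 bp, and a peak of 114 bp in replicate 1, where the widest was 230 bp, the width of mir-51.

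**Figure D4:**
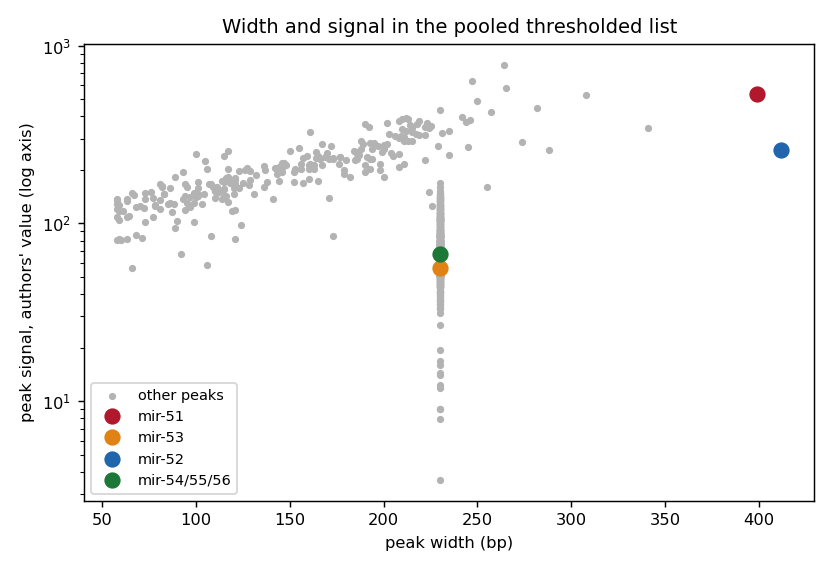
Width in bp (x axis) against signal (authors' value, log axis) for the 1083 pooled thresholded peaks. The column at 230 bp is the common width and holds mir-53 and mir-54, and the mir-51 and mir-52 dots lie farthest to the right, at 399 and 412 bp.

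Among peaks with no tRNA, snRNA or snoRNA gene by the summit, the upper pair of the family ranked at or near the top. Peaks at other non-coding RNA genes stayed in this set. The mir-51 summit lies inside one, F36H1.17, and the mir-52 summit inside Y37A1B.330 and Y37A1B.335. Of the 754 pooled peaks with no tRNA, snRNA or snoRNA gene within 250 bp, 0 had a higher signal than mir-51 and 7 had a higher signal than mir-52. At mir-54 the number was 366 and at mir-53 it was 552. In the pooled ranked list mir-51 came 18th by signal, at rank 18 of 48126, and 14 of the 17 regions above it are not in the thresholded list.

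No summit of the family lay in the promoter of a protein-coding gene, taken as 500 bp upstream to 200 bp downstream of a transcript start. Over the whole pooled list, 575 coding genes (2.88% of 19973) had a summit there. That is a share of genes, and the share of peaks is not given here, so the family's summits are only described. The nearest coding neighbour of mir-51 was alh-3, an aldehyde dehydrogenase gene, 142 bp away, with hrg-5, a heme-responsive gene, 2176 bp away on the other side. Both also flank mir-53, alh-3 at 1722 bp and hrg-5 at 597 bp. By contrast mir-52 lies far from coding genes, with irld-55 at 9379 bp and Y37A1B.7 at 8487 bp. Outside the host F09A5.3, the coding genes nearest to mir-54 were ttr-34, of the transthyretin-related group, at 4109 bp, and mob-2 at 7725 bp.

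Below the threshold, the windows of the family held little more. The pooled ranked list had 13 further regions there, with signals from 5.80 to 41.0. The highest −log10 IDR among them was 1.90, in the window of the mir-54 cluster, which held 7 of the 13. The windows of mir-52, mir-51 and mir-53 held 4, 1 and 1. At this looser level 83.1% of all microRNA genes, 217 in number, had a region within 2000 bp.

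Other microRNA genes with a pooled peak in their window numbered 33, and 32 of them had a peak that was not the family's. They shared 21 distinct peaks, with signals of 35.9 to 316 and a median of 79.5. None exceeded mir-51 and 2 exceeded mir-52, and both of these lay by tRNA genes. The first, at chrX:8156080-8156298 with a signal of 316, lies by F22F1.t6 in the window of mir-237. The second, at chrX:1880780-1880979 with 262, lies by Y59E1B.t2 in the windows of mir-1018, mir-4921, mir-4923.1, mir-4923.2 and mir-4925. Of the 21 peaks, 5 had a tRNA, snRNA or snoRNA gene within 250 bp.

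A pooled peak touched 5 microRNA genes outside the family. The peak at mir-5549 (chrIII:6972044-6972154, signal 160) had its summit 14 bp upstream (-14) and is also in the promoters of eef-1A.1, a translation elongation factor, and rfc-4, a subunit of the replication clamp loader. It was in the thresholded lists of both replicates. The peak at mir-4936 had a signal of 97.1 with the summit 63 bp after the precursor start. It passed the threshold in replicate 1 only. The genes mir-35, mir-36 and mir-37 shared a peak of signal 50.2 that passed the threshold in replicate 2 only. Before the threshold, the ranked lists of both replicates held regions in the windows of mir-4936, mir-35, mir-36 and mir-37.

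Among named families, the mir-35 family, which like the mir-51 family is needed in the embryo, had a pooled peak within 2000 bp for 7 of 8 genes, where the share over all microRNA genes was 14.9%. All 7 lie in 1 cluster. The peak of signal 50.2 lies over mir-35, mir-36 and mir-37 and that of signal 64.9 upstream of them, and neither is in the thresholded list of replicate 1. Of the let-7 family, whose members time larval development, 0 of 4 had a pooled peak, although let-7 had a peak of signal 55.4 in its window in the conservative list. Of the bantam-related genes 1 of 4 had a pooled peak, mir-58.1, with a signal of 82.5 and a summit 263 bp upstream (-263). With 4 genes each, these counts of 0 and 1 are near the share of 14.9%. The gene mir-90 had a pooled peak with a signal of 65.4 and the summit at -259, thresholded in both replicates. The remaining genes with a peak in their window were mir-59, mir-62, mir-64, mir-65, mir-66, mir-229, mir-235, mir-354, mir-1819, mir-1824, mir-2212, mir-2215, mir-2216, mir-8190 and mir-8201. Genes for the proteins that make or use microRNAs, among them drsh-1 (Drosha), pash-1, dcr-1 (Dicer) and the Argonautes alg-1 and alg-2, had a summit in the promoter in 0 of 15 cases, and at the share of 2.88% over all coding genes a count of 0 says nothing particular about them.

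**Figure D5:**
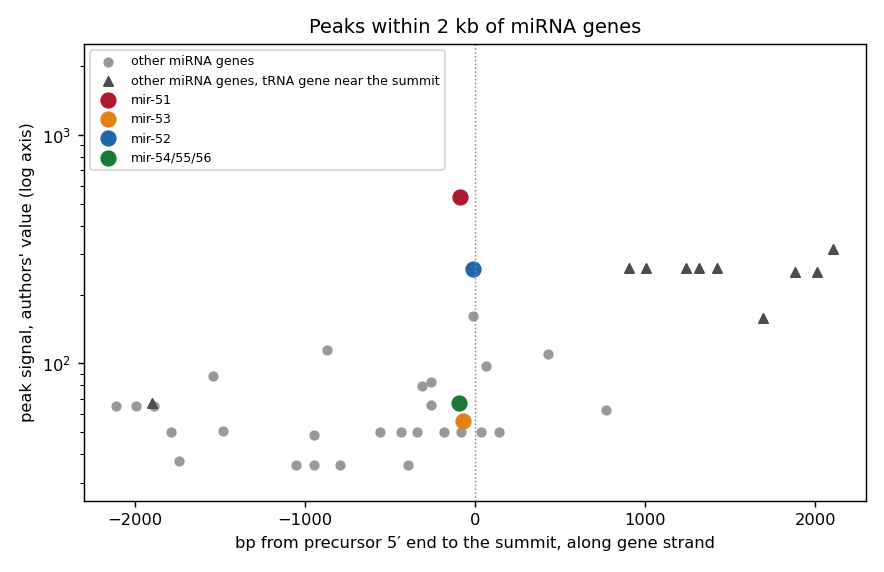
Signal of pooled thresholded peaks (authors' value, log axis) against the distance in bp from the precursor 5′ end to the summit along the gene strand, for peaks within 2 kb of microRNA genes. Each grey symbol is 1 gene and peak outside the family, with triangles where a tRNA gene lies by the summit, and coloured dots are the family. The family dots sit just left of 0, with mir-51 highest at 535, and a peak shared by several genes appears several times.

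In each list a microRNA gene can be ranked by the highest signal of any region within 2000 bp. By the ranked lists mir-51 came first of 261 in the pooled list and in each replicate, shared by mir-53 since both windows hold the same peak. Several genes above mir-52 in the pooled list likewise share the peak by the tRNA gene Y59E1B.t2, so these are ranks of genes and not of peaks. The rank of mir-52 was 9 in the pooled list, 12 in replicate 1 and 3 in replicate 2. For each of mir-54, mir-55 and mir-56 it was 21 in the pooled list, 18 in replicate 1 and 36 in replicate 2. Shares of microRNA genes with a thresholded peak in the window were 9.2% in replicate 1 (24 genes), 13.4% in replicate 2 (35 genes) and 12.3% in the conservative list (32 genes), with all 6 members counted in each.

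The peaks most like each family peak were found by the distance between log10 signals in the pooled list and both replicates, over the 1043 peaks. Nearest to mir-51 were the peak at the snoRNA gene T06C12.16, with a pooled signal of 487, that at the non-coding RNA gene T03F7.14, with 526, and that at the snoRNA gene W03C9.9, with 575. Those nearest to mir-52 lay in the promoter of rpl-3, a ribosomal protein gene, with 271, and beside 21ur-9399 and Y94H6A.t1, the nearest genes, with 225 and 256. Distances were 0.104 to 0.149 for mir-51 and 0.129 to 0.168 for mir-52, larger than for the lower pair. The lower pair lies nearer the list's median signal of 75.4, where peaks are closer together in signal. The peak nearest to mir-53 was at C26C6.12, at a distance of 0.0109, followed by those nearest to the genes ZK899.6 and zer-1. For mir-54 it was at F38E9.10 and the tRNA gene F38E9.t2, at 0.00437, followed by the promoters of Y46E12BL.2 and ZK829.7.

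A second motif, CTCCGCCC, has been described upstream of nematode microRNA genes. On either strand it was absent within 300 bp upstream of the precursor and within 300 bp around the summit at all 4 places. It occurred upstream of 7.28% of microRNA genes, 19 of 261, and at 4.34% of the pooled peaks. These letters are not in the windows searched, and nothing about a factor follows from that.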

How the data were processed

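FLT-1 ChIP-seq peak lists of 2 biological replicates of 1 group were used, 8 lists in all, on ce11 per the deposited file lists. No source used here gives the aligner or the peak caller. The deposited lists give a signal per peak (the authors' value, scale not stated), a score of up to 1000 set by the authors from the IDR, the −log10 IDR in the deposited ranked lists, and a summit offset from the peak start. Chromatin was sonicated to 200 to 800 bp, per the labels. No peak of a thresholded list had a score under 830.

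Coordinates are 1-based. Genes came from Ensembl release 115 on WBcel235 and RefSeq, whose names matched 46881 of 46890 genes by identifier, and 0 regions ran past a chromosome end. A gene had a peak when at least 1 bp of the peak lay within 2000 bp of its ends. The 20 mitochondrial peaks of replicate 2 were left out. Genes named are the 6 members, genes under their peaks, hosts and nearest coding neighbours, other microRNA genes with a peak in their window, the 3 most similar peaks of each family peak, and genes of fixed lists with a peak. Genes beside the peaks of other microRNA genes are named with those peaks. The genes drsh-1, pash-1, dcr-1, alg-1 and alg-2 are named as examples from a fixed list, without a peak. The genes C14F11.14, his-67, his-68, F15G9.t1, C51F7.4, Y43F8C.22 and let-7 were chosen after their values were seen. Members and lists were chosen with earlier results of these data known. With 1 group no test was run. The counting steps were tested on simulated data. Alternatives were other windows, lists, positions and leaving out each replicate. Python 3.11.15, NumPy 2.4.6, pandas 2.3.3, Biopython 1.88 and Matplotlib 3.10.9 were used.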

Additional observations from a re-analysis of the deposited data

How the results depend on the processing

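Of 38 alternatives, 30 left the value within the spread between replicates or, for counts, within 1.5 times. This measure is loose. The spread comes from the same 2 replicates that were left out in turn, and for mir-52 it was 18.3 percentile points. RefSeq gave the same positions for all 6 members, so that alternative could not change a value. A fall from 6 to 4 members also counted as within 1.5 times. With a window of 0 bp 4 members had a peak and with 250 bp 5. With only peaks above the median signal 3 did, against 6, since the peaks of mir-53 and mir-54 lie under the median and mir-53 counts through the mir-51 peak. Taking the midpoint of the peak put mir-51 at -31 bp, against -87 for the summit. Over all microRNA genes a window of 250 bp gave 17 genes and one of 500 bp 21, against 39. Leaving out each replicate in turn, the number of members stayed at 6, the share of peaks below mir-51 ran from 98.4% to 99.5%, that below mir-52 from 72.3% to 98.3%, the mir-51 summit from -90 to -85 bp and the number of all microRNA genes from 24 to 35. The mir-52 summit ran from -17 to 28 bp: without replicate 2 it lay 28 bp inside the precursor, against -13 with both. The cause was not tested. No paired analysis was possible because there is 1 group and no result comes from a test. Without read counts, depth cannot be weighed, and 2 replicates give a spread of little precision.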

Other observations

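Peaks with a B box but no tRNA gene beside them were few and included several of the strongest peaks of the pooled list. Among the 53 pooled peaks with GTTCGANNC within 300 bp around the summit and no tRNA gene within 250 bp, the median signal was 115, and it was 67.4 among the 779 peaks with neither. By signal, the first of the 53 lay at the snoRNA gene C51F7.4, with 780, the second at the snoRNA gene W03C9.9, with 575, and the third at F36H1.17 beside mir-51, with 535. The fourth was at the snoRNA gene Y43F8C.22, with 396. No test was run on these values.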
